A study of Mus musculus with 18 samples.

Results

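CCR2+ and CCR2- cardiac resident macrophages (CRMs) of young hearts were compared across all genes, using 6 of the 18 libraries of the series, 3 per subset. The members were the libraries that the sample labels give to control mice, sorted as CCR2 positive or CCR2 negative. The young mice were female C57BL/6J animals of 3 months on normal chow, and the other libraries came from aged mice of 20 months and from mice on a high-fat diet, whose age is not given in the sources used here. CRMs were sorted from digested left ventricles after perfusion, on CD11b, CX3CR1 and CCR2, with over 5000 cells per sample, and cDNA was amplified with a SMART-Seq low-input kit. No transgene or deletion is given for any group. The labels number the libraries within each subset but do not say which came from the same heart. The p-values thus measure a spread between libraries, and it was estimated over the young and aged libraries together.

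Cardiac macrophages are a mixed population. Cells that express TIMD4, LYVE1 and FOLR2 renew themselves in the tissue and clear dying cells and debris, while CCR2+ cells are replenished from blood monocytes, which follow the chemokine CCL2 through this receptor. CCR2+ macrophages are known for antigen presentation and inflammatory signalling, and CCR2- macrophages for efferocytosis and growth factor supply.

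Total counts ran from 42223296 to 56541280 in these libraries, so that 3 counts, the limit that a count of 0 allows, stand for 0.0531 to 0.0711 CPM, the unit of counts relative to the library total. Reads amplified from one molecule are not independent, so this limit is one of counting error only. Levels are given as CPM scaled by TMM factors, which ran from 0.652 to 1.21 and adjust for the composition of each library. CCR2- library 3 stood apart. Of 3971 genes that averaged 10 CPM or more and differed at least 2-fold between CCR2- libraries 1 and 2, 99.5% lay between them in library 3, and a mix with a weight of 0.5 for library 1 gave a Pearson correlation of 0.993 with library 3 across genes. Such a share was 38.4% to 49.99% when a CCR2+ library was set between the other two, and 99.6% for library 3 of the aged CCR2- CRMs. The tests treated all libraries as independent. If library 3 of the CCR2- CRMs is not, the spread is understated, and standard errors and p-values are too small. Counts of calls, and the list medians that moved most, are given also without CCR2- library 3. The values of single genes are given for each library. The replicates also differed strongly. Of the genes with at least 50 CPM in some library of a subset, the highest library stood over 10 times above the lowest for 77.2% in CCR2+ CRMs and 39.5% in CCR2- CRMs.

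**Figure D1:**
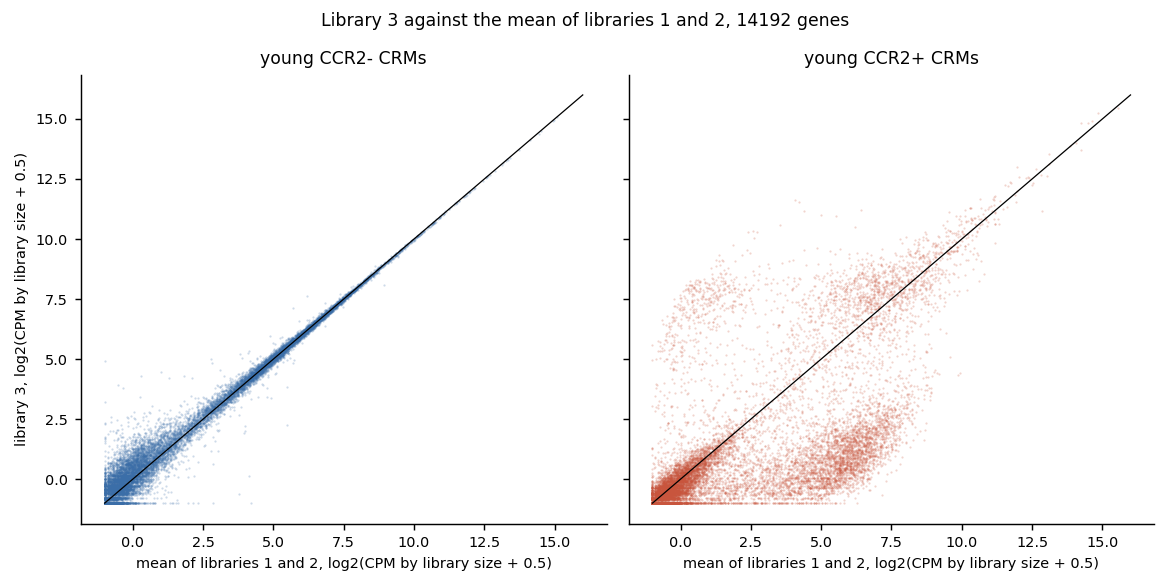
Each point is 1 of 14192 tested genes; the x axis is the mean of libraries 1 and 2 and the y axis library 3 of the same subset, both as log2 of CPM by library size plus 0.5, and the line marks equality. Young CCR2- CRMs (left) lie along the line, with a correlation of 0.993 for the best mix, and young CCR2+ CRMs (right) scatter into groups of genes that are high on one axis and near 0 on the other.

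The gate itself was checked first. Ccr2, the receptor used for sorting, was at 2.44, 2.94 and 3.92 CPM in the CCR2- libraries and 311, 257 and 56.1 CPM in the CCR2+ libraries. The subsets did not overlap, and the log2 fold change was 6.07 ± 0.95 (SE, edgeR quasi-likelihood test, adjusted p = 0.0242). Timd4, a phosphatidylserine receptor of long-lived resident macrophages, was at 173, 2.44 and 73.5 CPM in CCR2- and 1.99, 0.995 and 2.79 CPM in CCR2+ libraries. It was high in CCR2- library 1, near the CCR2+ level in library 2 and between these in library 3, as a mix of them would be. Its log2 fold change of -5.43 ± 1.80 did not pass the test (edgeR adjusted p = 0.103). Lyve1, the hyaluronan receptor, was at 737, 1046 and 642 CPM against 303, 166 and 469 CPM, and Folr2, a folate receptor, at 1213, 1109 and 830.2 CPM against 34.4, 435 and 257 CPM. Neither overlapped between subsets, and neither passed the test, with log2 fold changes of -1.37 ± 0.86 and -2.12 ± 0.90 (edgeR adjusted p = 0.343 and 0.145). On high-fat diet all 3 resident markers were lower in CCR2+ CRMs without overlap, with log2 fold changes of -2.68, -3.58 and -2.41, and in aged mice they overlapped, with -5.46, -1.89 and -1.85. Itgam, which encodes CD11b, was at 6.80, 2.73 and 8.29 CPM in CCR2- and 139, 56 and 1.65 CPM in CCR2+ libraries. Cx3cr1, the fractalkine receptor, was at 4.77, 105 and 38.2 CPM and 105, 6.67 and 7.02 CPM. Both transcripts of the shared gate were thus low in some libraries of each subset. The summed CPM of 15 macrophage markers, Itgam and Cx3cr1 included, ran from 57773 to 84283 in CCR2- and from 44614 to 101336 in CCR2+ libraries. Lyz2 was the highest of them in every library, at 24752 to 58897 CPM. Other members were low in some libraries, as Mertk at 1.45 and 1.61 CPM in CCR2+ libraries 1 and 3. Fcgr1 was at 5.55 CPM in CCR2- library 2 and 5.58 CPM in CCR2+ library 2, and Mrc1 at 8.64 CPM in CCR2+ library 2.

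Across the transcriptome, 15 genes were called higher and 70 lower in CCR2+ than in CCR2- CRMs, out of 14192 genes tested. To be called, a gene needed a log2 fold change above 2 or below -2 together with an adjusted p under 0.05. These are 0.106% and 0.493% of the genes tested, and 86 genes passed the adjusted p at any fold. Levels did not overlap between the subsets for any of the 85 called genes, nor for 923 genes (6.5%) that were higher and 1779 (12.5%) that were lower in CCR2+ CRMs over all genes tested. The called genes rested on all 3 CCR2- libraries, since 0 genes were called with any 1 of them left out, while 44 higher and 59 lower were called without CCR2+ library 1, 38 and 46 without library 2, and 28 and 36 without library 3. With CCR2- library 3 left out at both ages 0 genes were called by edgeR, the smallest adjusted p was 0.311 and 2225 genes had an unadjusted p under 0.05. The 85 genes then each had an unadjusted p of 0.00444 or lower in edgeR, with log2 fold changes that moved by at most 0.30. They had been chosen by p on the libraries that were kept as well, and library 3 was close to a mix of these. Such values therefore largely follow from the choice and are no separate support. DESeq2 then called 650 higher and 866 lower. With RLE factors in place of TMM factors, 10 genes were called higher and 0 lower. On only the 6 young libraries edgeR called 0 higher and 0 lower, with a smallest adjusted p of 0.165 and 3243 genes at an unadjusted p under 0.05, and it called 0 and 0 with a replicate block. DESeq2 on the 12 libraries called 1526 higher and 1640 lower.

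Among genes called higher, the calcium-binding proteins S100a4 and S100a6 of motile myeloid cells rose together. S100a4 was at 278, 239.6 and 184 CPM in CCR2- and 1697, 1107 and 2592 CPM in CCR2+ libraries, with a log2 fold change of 2.94 ± 0.47, and S100a6 was at 246, 187 and 158 CPM against 963, 1339.8 and 1302 CPM, with 2.61 ± 0.41 (edgeR adjusted p = 0.0242 for both). Every CCR2+ library was above every CCR2- library for both genes. Tmsb10, an actin-binding thymosin, was at 395, 549 and 318 CPM against 1501, 2565 and 3279.9 CPM. Kcnn4, a calcium-activated potassium channel, was at 8.37, 7.17 and 6.99 CPM in CCR2- libraries and 253, 203 and 247 CPM in CCR2+ libraries, a log2 fold change of 4.96 ± 0.74 (edgeR adjusted p = 0.0239). Tnip3, which binds the NF-kB inhibitor A20, was at 92.8, 10.7 and 42.1 CPM against 403, 478 and 928 CPM and had the adjusted p nearest the threshold among these, 0.0494 in edgeR. Traf1, an adaptor of TNF receptors, was at 5.23, 7.32 and 2.76 CPM against 231, 214 and 454 CPM, and Cyp4f18, a cytochrome that oxidises leukotriene B4, at 76.2, 15.1 and 32.4 CPM against 996, 380.3 and 1269.6 CPM. The log2 fold changes of Traf1 and Cyp4f18 were 5.88 ± 0.83 and 4.42 ± 0.69. Sra1, a steroid receptor RNA activator, was at 7.78, 10.5 and 5.20 CPM in CCR2- and 206, 189 and 691 CPM in CCR2+ libraries. Nap1l1, a histone chaperone, was at 5.99, 10.5 and 11.1 CPM against 92.6, 356 and 475 CPM, and Pum2, an RNA-binding repressor, at 4.60, 4.45 and 5.15 CPM against 266, 64.1 and 225 CPM. The CCR2- libraries held under 12 CPM of Sra1, Nap1l1 and Pum2 in every case. Over the 15 genes log2 fold changes ran from 2.54 to 6.14.

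Of the genes called lower, 3 belong to the list of resident macrophage genes. Rnase4, a secreted ribonuclease, had the smallest p of all genes and was at 962, 774 and 652 CPM in CCR2- and 39.4, 12.8 and 20.2 CPM in CCR2+ libraries, a log2 fold change of -5.04 ± 0.61 (edgeR adjusted p = 0.0213). It shares its locus with the angiogenin gene Ang, and strand-specific counting is not given in the sources used here. Gas6, the ligand that bridges phosphatidylserine on dying cells to MERTK and AXL, was at 515, 484 and 365 CPM against 6.06, 5.68 and 7.56 CPM, with a log2 fold change of -6.14 ± 0.91. Cd163, the haptoglobin-hemoglobin scavenger receptor, was at 248, 263 and 191 CPM against 3.14, 2.91 and 4.03 CPM, with -6.12 ± 1.05 (edgeR adjusted p = 0.0239 and 0.028). In all 3 genes the lowest CCR2- library stood far above the highest CCR2+ library. On GRCm38, Rnase4 lies at chr14:51091077-51106151, Gas6 at chr8:13465374-13494490 and Cd163 at chr6:124304656-124330527, as GENCODE M21 annotates these protein-coding genes.

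The 250 bases before the RefSeq start of S100a4, Gas6 and Cd163 (GRCm38.p6, gene strand, 5′ to 3′) are shown because these genes were called in opposite directions, and capitals mark TATAAA on the gene strand, GAGGAA (a PU.1 core) on either strand or TGCTGA (the core of a MAF site) on either strand. The window of S100a4 is chr3:90603520-90603769 on the plus strand, that of Gas6 is chr8:13494536-13494785 on the minus strand, and that of Cd163 is chr6:124304401-124304650 on the plus strand.
S100a4: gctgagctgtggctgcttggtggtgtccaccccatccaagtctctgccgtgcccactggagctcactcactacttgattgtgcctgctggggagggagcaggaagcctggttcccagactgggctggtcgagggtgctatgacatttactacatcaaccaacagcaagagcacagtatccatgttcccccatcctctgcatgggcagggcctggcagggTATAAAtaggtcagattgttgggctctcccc
Gas6: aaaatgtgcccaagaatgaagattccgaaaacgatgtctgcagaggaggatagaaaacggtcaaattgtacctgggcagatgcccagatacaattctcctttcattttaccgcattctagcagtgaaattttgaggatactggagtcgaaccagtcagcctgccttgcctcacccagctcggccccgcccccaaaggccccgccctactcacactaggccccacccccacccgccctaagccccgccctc
Cd163: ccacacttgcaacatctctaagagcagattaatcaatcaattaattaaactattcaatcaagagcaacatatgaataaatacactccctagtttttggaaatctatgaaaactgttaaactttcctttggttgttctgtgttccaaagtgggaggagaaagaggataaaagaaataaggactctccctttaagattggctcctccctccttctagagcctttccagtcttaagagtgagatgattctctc
TATAAA occurs in the window of S100a4 and in 8.12% of 27025 promoters. None of the motifs searched occurs in the windows of Gas6 and Cd163. Promoters were matched for 12 genes called higher and 60 called lower, and GAGGAA was in 25% and 21.7% of them against 23.1% of all promoters. TGCTGA was in 16.7% and 11.7%, against 15.8% of all, and TATAAA in 8.33% and 3.33%, against 8.12% of all.

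Other genes called lower with the smallest p had varied roles. Batf, an AP-1 family transcription factor, was at 204, 199 and 143 CPM in CCR2- and 4.26, 4.71 and 4.94 CPM in CCR2+ libraries. Dok3, an adaptor that restrains immune receptor signalling, was at 96.5, 227 and 107 CPM against 3.06, 3.06 and 2.86 CPM. All 3 CCR2+ libraries lay within a few CPM of each other for both genes. Rab4b, of recycling endosomes, was at 146, 266 and 148 CPM against 4.14, 3.09 and 4.13 CPM, and Chmp3, an ESCRT subunit, at 139, 436 and 195 CPM against 5.38, 6.60 and 6.02 CPM. Surf4, a cargo receptor of the endoplasmic reticulum, was at 150.5, 950.3 and 364 CPM against 14.6, 13.7 and 15.8 CPM. Lipa, the lysosomal acid lipase, was at 121, 342 and 172 CPM against 7.32, 11.1 and 12.5 CPM, and Hat1, a histone acetyltransferase, at 272, 101.3 and 160.2 CPM against 3.91, 3.46 and 4.81 CPM. Their log2 fold changes lay between -5.62 for Rab4b and -4.36 for Lipa (edgeR adjusted p = 0.0239 and 0.0242).

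Low levels in CCR2+ libraries were a common feature of the genes called lower. The mean CCR2+ level was under 10 CPM for 65 of the 70, with a median of 3.39 CPM against 117 CPM in CCR2- CRMs. The high-fat diet libraries, which the young comparison does not use, served as a yardstick by library size. Of 62 genes called lower with a mean of at least 20 CPM there, 57 stood under 10% of that mean in all 3 young CCR2+ libraries and in no young CCR2- library. Over all 4688 genes with such a mean, 233 (4.97%) showed the same in CCR2+ and 18 (0.384%) the reverse pattern. The genes called lower were chosen on these same young values, with log2 fold changes of -3.73 or lower. The share among them therefore largely follows from that choice. Per library, 12.9% to 33.2% of those 4688 genes stood under 10% of the yardstick in CCR2- CRMs and 39.4% to 58.7% in CCR2+ CRMs. The part that this difference between the libraries has in the called genes was not tested.

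The aged and high-fat diet libraries gave the same subset comparison in other mice, without shared libraries. Of the 15 genes called higher in young mice, 8 were separated without overlap in the same direction in aged mice, where 8.17% of all genes were, and 8 in high-fat diet mice, where 7.57% were. Of the 70 genes called lower, 18 were separated the same way in aged mice, against 7.37% of all genes, and 5 in high-fat diet mice, against 6.11%. The 5 of 70 is near the background. The direction was opposite without overlap for 2 of the 15 and 7 of the 70 in aged mice, and for 0 and 3 in high-fat diet mice. In high-fat diet mice the genes called higher had a median log2 fold change of 1.30 and those called lower a median of -0.03, beside 0.11 over all genes. In aged mice these medians were 0.54 and -0.21, beside 0.12 over all genes.

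**Figure D2:**
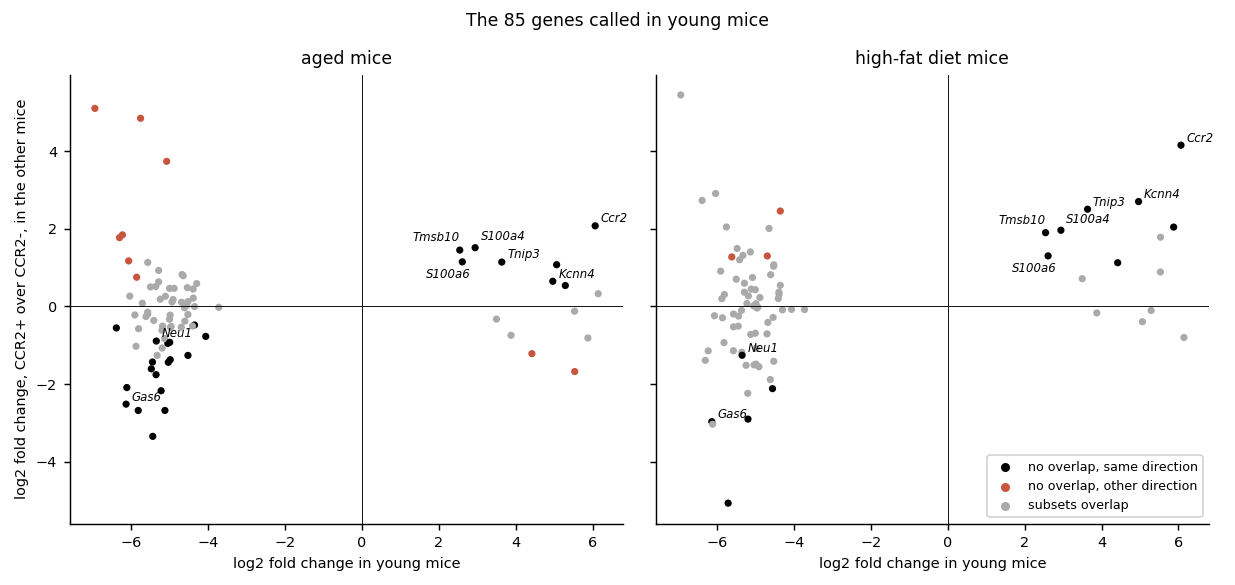
Each point is 1 of the 85 genes called in young mice; the x axis is the log2 fold change of CCR2+ over CCR2- CRMs in young mice and the y axis the same in aged (left) or high-fat diet (right) mice. Black points are separated in the young direction, red points in the other direction, and grey points overlap; the 8 labelled genes are those separated the same way in all 3 kinds of mice, and the 70 genes called lower lie on both sides of 0, with a median of -0.21 in aged and -0.03 in high-fat diet mice.

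In all, 6 genes called higher and 2 called lower were separated the same way in young, aged and high-fat diet mice. They were Ccr2, the receptor used for sorting, S100a4, S100a6, Tmsb10, Tnip3, Kcnn4, Gas6 and Neu1. Over all genes tested, 36 (0.254%) were higher and 18 (0.127%) lower without overlap in all 3 kinds of mice, and the young direction was already part of the choice of the called genes. Levels of aged and high-fat diet libraries are scaled over all 18 libraries. Ccr2 was at 98.8, 31.2 and 43.9 CPM in aged CCR2- and 345, 299.7 and 123 CPM in aged CCR2+ libraries, and at 7.40, 28.9 and 6.79 CPM against 153, 324 and 291 CPM on high-fat diet. On this scale the young CCR2- libraries held 2.41, 2.91 and 3.88 CPM. Gas6 was at 114, 55.4 and 57.7 CPM against 29.2, 6.65 and 5.21 CPM in aged and at 147, 251 and 642 CPM against 35.2, 7.52 and 90.0 CPM in high-fat diet mice. S100a4 was at 469.7, 347 and 296 CPM against 1655, 1024 and 621 CPM in aged and 497, 325 and 322 CPM against 1753, 1400.0 and 1309.8 CPM in high-fat diet mice. Neu1, a lysosomal sialidase, had log2 fold changes of -5.35 in young, -0.89 in aged and -1.26 in high-fat diet mice. Its separation was narrow in the other mice. The lowest CCR2- and highest CCR2+ library were at 86.8 and 84.7 CPM in aged and at 49.1 and 46.1 CPM in high-fat diet mice. Cd163 and Rnase4 were separated in aged mice, and on high-fat diet their highest CCR2+ library, at 105 and 521 CPM, overlapped the CCR2- range.

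**Figure D3:**
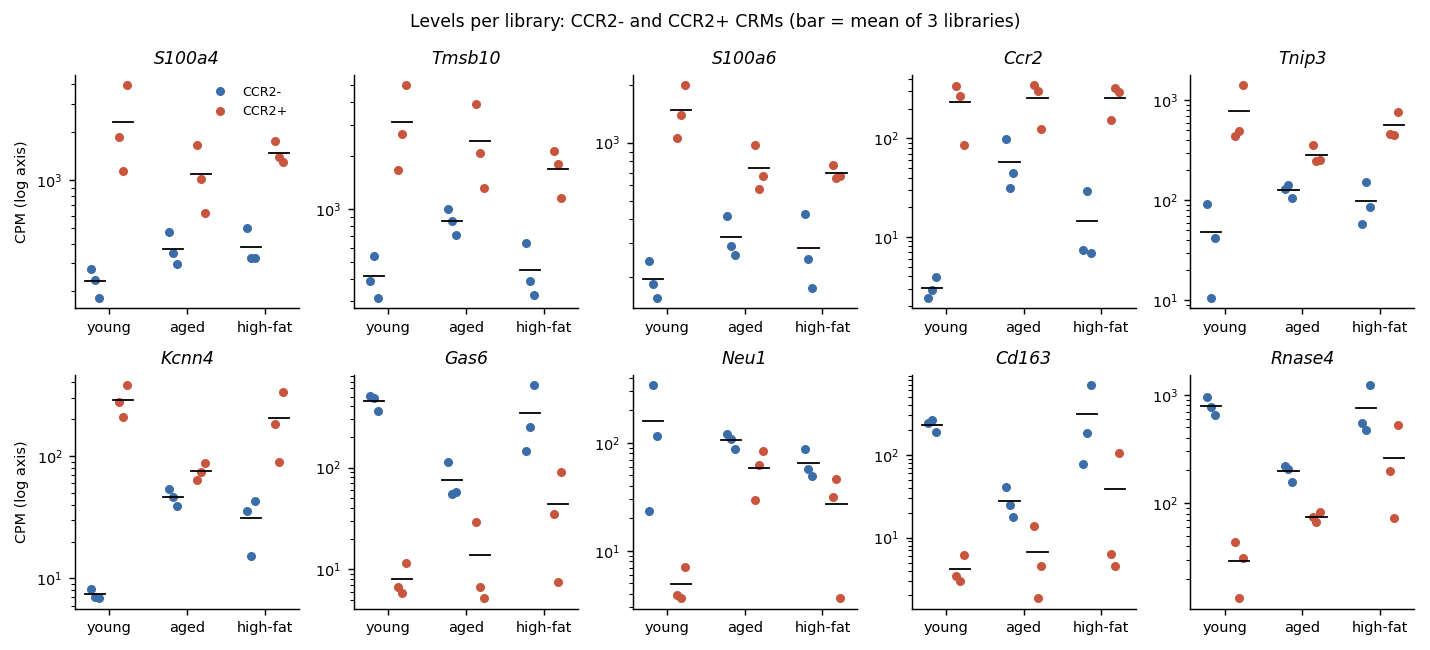
Levels per library in CPM scaled over 18 libraries, on a log axis of its own for each gene, for CCR2- (blue) and CCR2+ (red) CRMs of young, aged and high-fat diet mice; points are libraries and bars are means of 3. The first 8 genes are separated in all 3 kinds of mice, and Cd163 and Rnase4 overlap on high-fat diet, where the highest CCR2+ libraries reach 105 and 521 CPM.

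The difference between the subset effects was tested as well. Between aged and young mice 0 of 14192 genes (0%) differed in their subset effect at an adjusted p under 0.05 in edgeR, with 3097 at an unadjusted p under 0.05, while DESeq2 called 1857. Between high-fat diet and young mice 3 of 15456 genes (0.0194%) differed, and all 3 were among the genes called lower in young mice. They include Rab4b and Batf, with log2 differences of 6.58 and 5.35 (edgeR adjusted p = 0.0299 for each), and 0 genes were called without CCR2- library 3. On high-fat diet, Batf was at 149.9, 123 and 157 CPM in CCR2- and 246, 149.8 and 159 CPM in CCR2+ libraries and overlapped between the subsets.

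Gene lists were described by their members. Among 30 genes of resident (TIMD4, LYVE1, FOLR2) macrophages, all tested, 14 were lower without overlap in CCR2+ CRMs against 12.5% of all genes. Of the 30, 0 were higher, and 3 were called lower (Rnase4, Gas6 and Cd163), beside 0.493% of all genes. The median log2 fold change was -1.39, beside -0.07 over all genes. Cbr2, a carbonyl reductase, was at 2527, 2970.0 and 1994 CPM in CCR2- and 579.9, 555 and 391 CPM in CCR2+ libraries, with a log2 fold change of -2.30 ± 0.51 and an edgeR adjusted p of 0.0604. Vsig4, a receptor for complement C3 fragments, was at 367, 99 and 181 CPM against 2.85, 3.27 and 7.39 CPM, and Fcna, a ficolin, at 46, 329.6 and 132 CPM against 4.49, 3.22 and 7.56 CPM, and neither was called. Mrc1 and Stab1 overlapped between the subsets. In aged mice 7 of the 30 were lower without overlap (7.37% of all genes) and 1 higher, and in high-fat diet mice 19 were lower (6.11% of all genes) and 3 higher.

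Among 30 genes of monocyte-derived macrophages, 8 were higher and 2 lower without overlap, beside 6.5% and 12.5% of all genes. Of the 30, 4 were called higher, beside 0.106% of all genes. The called genes were S100a4, S100a6, Tnip3 and Ccr2, the receptor used for sorting. The median log2 fold change of the 30 genes was 1.40, and it ran from 0.82 to 1.38 with 1 library left out. Thbs1, which encodes thrombospondin 1, was at 29.8, 5.98 and 32.5 CPM against 203, 92.7 and 509.5 CPM and was not called (edgeR adjusted p = 0.0935). On high-fat diet 20 of these genes were higher without overlap (7.57% of all genes) and 0 lower, and in aged mice 8 were higher (8.17% of all genes) and 2 lower. The monocyte marker Ly6c2 ran from 2.03 to 61.6 CPM in CCR2- and from 2.92 to 12.5 CPM in CCR2+ libraries, and Vcan was under 0.5 CPM in all 6. Summed over 14 monocyte markers, which include Ccr2, CCR2- libraries held 773 to 1273 CPM and CCR2+ libraries 1313 to 4951 CPM. Of the 14, 1 was higher and 1 lower without overlap, beside 6.5% and 12.5% of all genes. Over 14 dendritic cell markers the sums were 219 to 334 CPM and 664 to 2393 CPM. Most of the latter came from Cd209a, which is also expressed by monocyte-derived cells. Of these 14 markers, 2 were higher and 1 lower without overlap, beside the same shares of all genes. Clec9a, Zbtb46 and Siglech were under 1 CPM in every library. Other markers were high in single libraries, as Bst2 at 388 CPM, Dpp4 at 156 CPM and Xcr1 at 85.9 CPM in CCR2+ library 1, Kmo at 144 CPM in CCR2+ library 2, Bst2 at 374 CPM in CCR2+ library 3, and Flt3 at 108 CPM in CCR2- library 2. The part of these cells in the results was not tested, and in sorted bulk RNA fewer cells of a type and less RNA per cell cannot be told apart.

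**Figure D4:**
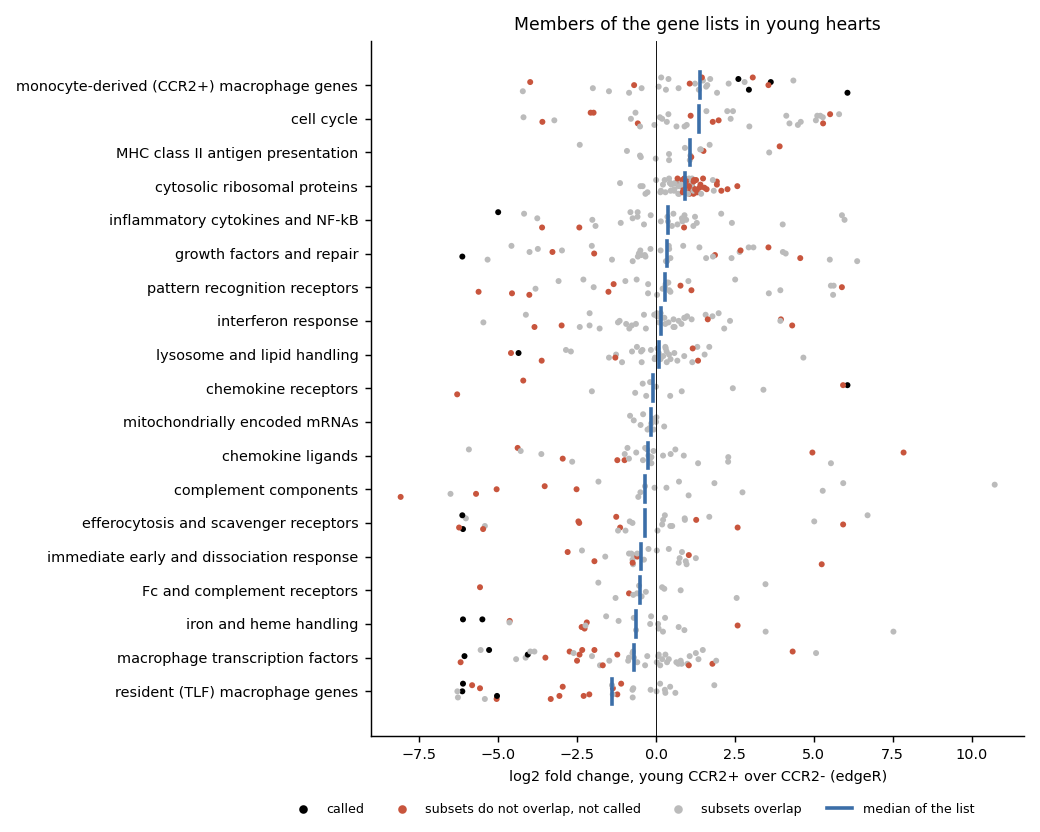
Log2 fold changes of young CCR2+ over CCR2- CRMs (x axis) for the tested members of 19 gene lists (rows), with the median of each list as a blue bar. Black points were called, red points did not overlap between the subsets without being called, and grey points overlapped; the resident list has its median at -1.39 and the monocyte-derived list at 1.40.

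The MHC class II genes, which present antigen to CD4 T cells, had a median log2 fold change of 1.07 over 17 genes, of which 3 were higher and 0 lower without overlap, beside 6.5% and 12.5% of all genes, and 0 were called. H2-DMb2, a peptide exchange chaperone with a near-identical copy, was at 14.7, 27.6 and 14.1 CPM in CCR2- and 173, 283 and 395 CPM in CCR2+ libraries (edgeR adjusted p = 0.0567). H2-Ab1 was at 11598, 19716 and 10916 CPM against 44652, 18581 and 48049.8 CPM, with a log2 fold change of 1.40 ± 0.33 and an edgeR adjusted p of 0.0713. Its CCR2+ library 2 lay within the CCR2- range, as did that of H2-Aa (8306, 15546 and 8377 against 28202, 14198 and 25223 CPM) and H2-Eb1 (7359, 13313 and 7234 against 23893, 12713 and 22706 CPM). On high-fat diet 10 of the 17 genes were higher without overlap, beside 7.57% of all genes, and in aged mice 2 were, beside 8.17%.

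Of 75 cytosolic ribosomal protein genes, 35 were higher and 0 lower without overlap in CCR2+ CRMs, beside 6.5% and 12.5% of all genes, and 0 were called. The median log2 fold change was 0.93, and these genes took 2.04% to 2.31% of counts in CCR2- and 2.89% to 3.83% in CCR2+ libraries. Rps7 was at 88.2, 137 and 82 CPM against 308, 765 and 761 CPM, with a log2 fold change of 2.58 ± 0.55 (edgeR adjusted p = 0.0559), and Rpl24 at 77.8, 174 and 87 CPM against 461, 538 and 626 CPM. Rpl27 had a log2 fold change of 1.93 ± 0.51. In aged mice 36 of the 75 were higher without overlap, beside 8.17% of all genes, and in high-fat diet mice 21 were, beside 7.57%. Ribosomal protein genes have many processed pseudogenes, and how reads with several matches were counted is not given in the sources used here. Among 13 mitochondrially encoded mRNAs 0 were separated in either direction, with a median of -0.15 and log2 fold changes of -0.83 ± 0.63 for mt-Nd6, -0.41 ± 0.42 for mt-Nd4, -0.71 ± 0.73 for mt-Nd4l and -0.27 ± 0.41 for mt-Atp8.

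Scavenging and complement genes were mostly described by single members. Of 28 tested efferocytosis and scavenger receptor genes, 8 were lower and 3 higher without overlap, beside 12.5% and 6.5% of all genes. Gas6 and Cd163 were called lower, beside 0.493% of all genes. The median was -0.35, and it ran from -0.87 to 0.08 with 1 library left out. Colec12, a collectin scavenger receptor, was at 65.3, 91.3 and 57.3 CPM against 1.47, 1.28 and 2.02 CPM, and Dock1, which drives engulfment, at 97, 22 and 50.9 CPM against 1.19, 0.366 and 0.672 CPM. Neither passed the test, with edgeR adjusted p-values of 0.0667 and 0.0979. Of 14 Fc and complement receptors, 2 were lower without overlap, near the 12.5% of all genes, 0 were called, and the median was -0.50. Fcgr3, an activating IgG receptor, was at 3989, 5350.2 and 3387 CPM against 3289.7, 2318 and 1414 CPM, and Fcgr1, the high-affinity IgG receptor, at 63, 5.55 and 28.8 CPM against 266, 5.58 and 300.4 CPM. Of 19 complement components tested, 5 were lower without overlap beside the same 12.5%, and 0 were called. Serping1, the C1 inhibitor, was at 109, 77.7 and 66 CPM against 2.55, 0.733 and 1.55 CPM, and C2 at 0.240, 44.4 and 12.9 CPM against 0.117, 0.105 and 0.403 CPM. C2 came from CCR2- library 2 and, at a lower level, library 3.

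Iron and heme handling held 2 genes called lower among 23, Slc48a1 and Cd163, beside 0.493% of all genes. Without overlap 6 were lower and 1 higher, beside 12.5% and 6.5% of all genes. The median was -0.64, and it ran from -2.38 to -0.06 with 1 library left out. Slc48a1, which carries heme out of the phagolysosome, was at 132, 187 and 122 CPM in CCR2- and 2.74, 3.01 and 3.93 CPM in CCR2+ libraries, a log2 fold change of -5.51 ± 0.94 (edgeR adjusted p = 0.028). Blvrb, a biliverdin reductase, was at 409, 572 and 359 CPM against 112, 134 and 14.5 CPM. Lcn2, a siderophore-binding protein, was at 2.61, 2.06 and 0.733 CPM against 2.50, 2.43 and 990.4 CPM and was high in CCR2+ library 3 only. In the lysosome and lipid list 1 of 38 genes, Lipa, was called lower, beside 0.493% of all genes. Without overlap 2 were higher and 4 lower, which is near the shares over all genes, and the median was 0.10. Gla, an alpha-galactosidase, was at 34.1, 104 and 54.2 CPM against 2.43, 10.4 and 2.76 CPM, Mitf, a lysosomal transcription factor, at 3.60, 20.2 and 7.23 CPM against 0.211, 0.393 and 0.672 CPM, and Npc1, a cholesterol exporter, at 4.53, 7.70 and 5.59 CPM against 442, 5.16 and 6.72 CPM, high in 1 CCR2+ library.

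Of 51 macrophage transcription factors, 12 were lower and 3 higher without overlap, beside 12.5% and 6.5% of all genes, and Batf, Stat3 and Batf3 were called lower, beside 0.493% of all genes. Stat3, which carries IL-6 and IL-10 signals, was at 255, 109 and 147 CPM against 13.4, 8.35 and 8.70 CPM, with a log2 fold change of -4.07 ± 0.69. Batf3 was at 50.8, 35.4 and 34.2 CPM against 0.538, 0.471 and 0.773 CPM, with -6.07 ± 1.09 (edgeR adjusted p = 0.028 and 0.0338). Tfec was at 11.2, 112 and 37.1 CPM against 0.702, 0.733 and 0.739 CPM and missed the threshold (edgeR adjusted p = 0.0727). The list's median was -0.70.

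Inflammatory genes were seldom separated. Of 33 tested cytokine and NF-kB genes 1 was higher and 3 lower without overlap, under the 6.5% and 12.5% of all genes. Only 1, Nlrp3, the inflammasome sensor, was called, as lower in CCR2+ CRMs, beside 0.493% of all genes. It was at 67, 228 and 93.7 CPM in CCR2- and 5.31, 3.66 and 3.13 CPM in CCR2+ libraries (log2 fold change -5.01 ± 0.97, edgeR adjusted p = 0.0439). Myd88, the adaptor of Toll-like receptors, was at 2.88, 198 and 63.1 CPM against 3.18, 3.51 and 7.83 CPM, Nfkbie at 24.3, 269 and 91.9 CPM against 22.1, 3.40 and 5.88 CPM, and Relb, of the alternative NF-kB pathway, at 5.53, 3.42 and 2.71 CPM against 334, 356 and 3.06 CPM. Relb was high in 2 CCR2+ libraries and low in the third. Of 31 pattern recognition receptors tested, 3 were higher and 5 lower without overlap, near the 6.5% and 12.5% of all genes, and 0 were called. Tmem173, which encodes STING, was at 39, 122 and 51.3 CPM against 4.07, 4.06 and 4.97 CPM, Clec5a at 73, 234 and 105 CPM against 3.04, 2.64 and 2.65 CPM, and the formyl peptide receptor Fpr2 at 30.4, 1.41 and 13.8 CPM against 0.304, 0.942 and 0.672 CPM. Their edgeR adjusted p-values were 0.0567, 0.0616 and 0.107. Of 44 interferon response genes, 3 were higher and 2 lower without overlap, near or under the shares of all genes, and 0 were called. Irf7, the factor that amplifies type I interferon, was at 9.17, 10.9 and 10.1 CPM against 152, 244 and 204 CPM (edgeR adjusted p = 0.089), and the nucleic acid sensor Zbp1 at 2.29, 4.33 and 3.24 CPM against 68, 79.4 and 3.80 CPM. Stat2 was at 6.08, 45.3 and 15.7 CPM against 1.22, 1.83 and 1.58 CPM, and Oas2 at 0.349, 61.1 and 23.7 CPM against 0.421, 0.550 and 0.941 CPM, the latter above 1 CPM only in CCR2- libraries 2 and 3.

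Chemokine receptors other than Ccr2 were not called. Among the 14 tested, Ccr2 included, 2 were higher and 2 lower without overlap, beside 6.5% and 12.5% of all genes. Cxcr2, of neutrophils, was at 1.33, 84.8 and 25.9 CPM in CCR2- and 0.491, 0.314 and 0.605 CPM in CCR2+ libraries, and Xcr1, of cross-presenting dendritic cells, at 0.763, 0.574 and 0.102 CPM against 85.9, 0.785 and 1.18 CPM, high in CCR2+ library 1 only. Of 30 chemokine ligands tested, 2 were higher and 4 lower without overlap, near the shares of all genes, and 0 were called. Pf4 was at 3286, 2799 and 2238 CPM against 1810.0, 484 and 1256 CPM, a log2 fold change of -1.23 ± 0.48 (edgeR adjusted p = 0.121). Ccl22 (0.370, 1.20 and 0.273 against 53.3, 2.07 and 1.85 CPM), Cxcl12 (0.719, 1.15 and 0 against 1.24, 1.20 and 427 CPM) and Ppbp (0.218, 112 and 35.8 against 0.585, 0.759 and 1.08 CPM) were each carried by 1 or 2 libraries.

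Growth factor and repair genes were split, with 4 higher and 3 lower without overlap among 40 tested, beside 6.5% and 12.5% of all genes. Only Gas6 was called lower, beside 0.493% of all genes. Adam8, a sheddase of leukocytes, was at 1.55, 2.06 and 3.62 CPM against 34.7, 114 and 22.8 CPM, and Tgm2, a matrix crosslinking enzyme, at 17.5, 5.79 and 12.3 CPM against 12.9, 50.8 and 549 CPM. Cell cycle genes had a median of 1.35 over 36 genes, with 5 higher and 4 lower without overlap beside the same shares, and 0 called. Rrm2 was at 2.68, 2.20 and 2.20 CPM against 145, 172 and 7.46 CPM and the replicative helicase subunit Mcm6 at 4.79, 3.75 and 5.07 CPM against 277, 250.5 and 7.26 CPM, both low in CCR2+ library 3, while Mcm3 was at 28.4, 135 and 57 CPM against 13.5, 1.83 and 2.72 CPM and Tubb5 at 124, 142 and 102 CPM against 359.6, 616 and 305 CPM. Members of the list went in opposite directions. The cell cycle median was 0.50 in the leave-one-out fit that lowered it most. It was -0.38 in aged and -0.88 in high-fat diet mice. Of 24 immediate early and dissociation response genes, 2 were higher and 4 lower without overlap, near the shares of all genes, and 0 called. Egr1 was at 305, 721 and 317 CPM against 146, 74.7 and 126 CPM, Dnajb1 at 162, 292 and 164 CPM against 9.90, 63.2 and 15.4 CPM, Jund at 1308, 2418 and 1258 CPM against 2520.0, 2871 and 4839 CPM, and Dusp2 at 3.03, 4.11 and 2.61 CPM against 4.59, 5.65 and 361 CPM.

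The median of all genes depended on scaling, at -0.07 with TMM factors, 0.71 with RLE factors and -0.43 when only library size was used. A scaling moves every gene by about the same amount, so that list medians are also given relative to that of all genes. Over the 3 scalings this difference was -1.42 to -1.30 for the resident, 1.39 to 1.47 for the monocyte-derived and 1.14 to 1.24 for the MHC class II list. Relative to 0, the medians of 13 of the 19 lists changed sign with the scaling, and those of these 3 lists and of the ribosomal protein, cell cycle, and cytokine and NF-kB lists did not. With CCR2- library 3 left out at both ages, the medians were -1.51 for the resident and 1.25 for the monocyte-derived list, and the largest moves were from -0.64 to -0.29 for iron and heme handling and from -0.35 to -0.02 for efferocytosis. Leaving it out can only add genes without overlap, and 1157 genes were then higher and 2009 lower. The members without overlap did not change in 8 lists, and the cell cycle list changed most, to 10 higher and 4 lower.

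Summed markers of other cells varied between libraries. Smooth muscle and pericyte markers summed to 1493 CPM in CCR2- library 1, 43.0 in library 2 and 649 in library 3, and to 7.67 to 385 CPM in CCR2+ libraries, with 6 of 14 genes lower without overlap in CCR2+ CRMs, beside 12.5% of all genes. Erythroid and platelet markers summed to 48.9 to 319 CPM in CCR2- and 87.2 to 3968 CPM in CCR2+ libraries. Hemoglobin genes together made up most of the sum in each of the 6 libraries. The platelet gene Ppbp was the highest single gene in CCR2- libraries 2 and 3, and Alas2 was at 0 counts in all 6 libraries. T and NK cell markers summed to 140 to 654 CPM in CCR2- and 73.7 to 102 CPM in CCR2+ libraries, so that the sums did not overlap. Of 17 genes, 1 was higher and 1 lower without overlap, beside 6.5% and 12.5% of all genes. Over all 6 libraries Cd3e was at 0.768 to 1.41 CPM, Trac at 4.47 to 5.50 CPM, Trbc2 at 12.3 to 19.3 CPM and Cd3d at 20.2 to 30.4 CPM. Cd4 was at 212 CPM, Nkg7 at 197 CPM, Gzma at 111 CPM and Klrb1c at 45.0 CPM in CCR2- library 2. Ncr1 was at 26.5 CPM in CCR2- library 1. Neutrophil markers ran from 35.3 to 608 CPM and from 58.2 to 1743 CPM. Of 14 genes, 0 were higher and 3 lower without overlap, beside the same shares of all genes. Ly6g was under 1 CPM in every library. S100a8 was at 3.20, 352 and 114 CPM in CCR2- and 6.53, 254 and 162 CPM in CCR2+ libraries. Retnlg was at 0.588, 44.5 and 15.2 CPM against 42.4, 91.0 and 155 CPM. Cxcr2 was at 84.8 CPM in CCR2- library 2, Ngp at 124 CPM in CCR2+ library 2, and Lcn2 at 990 CPM and Mmp9 at 259 CPM in CCR2+ library 3. Endothelial sums were 343 to 632 CPM and 70.5 to 623 CPM, fibroblast sums 464 to 1233 CPM and 589 to 2043 CPM, cardiomyocyte sums 147 to 224 CPM and 140 to 230.5 CPM, and B cell sums 272 to 376 CPM and 269 to 675 CPM. Adipocyte and glial sums were 4.66 to 259 CPM and 2.39 to 54.6 CPM, and mast cell and basophil sums were at most 3.53 CPM. Their part in the results was not tested.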

How the data were processed

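RNA of FACS-sorted CRMs was sequenced from SMART-Seq v4 libraries. Per the labels and the study's methods, the authors ran FastQC and Cutadapt on the reads, aligned them by HISAT2 and used StringTie for assembly. They deposited whole-number counts per Ensembl gene, not normalized, for 55401 genes. Tool versions, strand and the handling of reads with several matches are not given in the sources used here. Symbols and coordinates came from GENCODE M21 (GRCm38), which matched 55141 genes.

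Groups came from the sample titles, with control read as young. Counts were fitted with edgeR 4.0.16 (R 4.3.3; limma 3.58.1 and DESeq2 1.42.0 for alternatives): filterByExpr, TMM factors, quasi-likelihood test and Benjamini-Hochberg adjustment. One fit by group held the 12 libraries of both ages, with the contrast of young CCR2+ and CCR2- CRMs, because both ages then share the estimate of the spread (common dispersion 1.39). The high-fat diet interaction used all 18 libraries. Calls needed a log2 fold change above 2 or below -2 with an adjusted p under 0.05. The edgeR test returns no standard error. The ± values are the absolute log2 fold change divided by the square root of the test's F statistic. The study's own tool, DESeq2, was an alternative. Scripts were tested on simulated data with independent libraries. Recovery of changed genes was required only at a spread far below that of these data. Total counts were 42223296 to 56541280 per library.

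The members, the 19 process and 13 cell type lists and the tests were chosen with earlier results of these data known. Named genes are the marker genes of the subsets and the gate, up to 10 called genes per direction with the smallest p, leaving out unnamed gene models (2 of the called genes), and up to 4 tested members of each process list with the smallest p. The results for 5 genes are not reported here. Genes named for other reasons (Neu1, Mrc1, Stab1 and cell type markers) were chosen after their values were seen. Correlations of deviations between same-numbered libraries of the subsets were 0.0114, -0.000565 and -0.0178. They cannot decide whether the numbers pair the libraries, since replicates differed strongly and CCR2- library 3 was close to a mix. Promoter sequences are from RefSeq (GRCm38.p6). Other alternatives were other scalings, filters, thresholds and tools, other libraries in the fit, and leaving out each library. DESeq2 without CCR2- library 3 was added after seeing the data. Figures were drawn with matplotlib 3.10.9.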

Additional observations from a re-analysis of the deposited data

Results flagged for a closer look

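Some genes had a subset difference that differed between kinds of mice. The subset difference of Batf was 5.35 higher (log2) on high-fat diet than in young mice (edgeR adjusted p = 0.0299). The subset difference of Rab4b was 6.58 higher (log2) on high-fat diet than in young mice (edgeR adjusted p = 0.0299). In Rab4b every young CCR2+ library was below every CCR2- library, and on high-fat diet the order was the opposite, with 57.1, 29.2 and 54.7 CPM in CCR2- and 100.9, 138 and 103 CPM in CCR2+ libraries. Both calls were absent when any 1 CCR2- library of the young mice was left out.

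Further genes were separated without overlap in opposite directions, and the test of the difference did not pass the threshold. Gla was lower in young and higher on high-fat diet, at 19, 45.1 and 17.1 CPM in CCR2- and 134, 157 and 93.1 CPM in CCR2+ libraries, a log2 difference of 5.67 (edgeR adjusted p = 0.115). Batf3 was lower in young and higher in aged CCR2+ CRMs, at 18.1, 18.2 and 13.7 CPM in aged CCR2- and 40.8, 55.3 and 21.3 CPM in aged CCR2+ libraries, a log2 difference of 7.25. Tfec showed the same with 10.84, at 0.399, 0.179 and 1.10 CPM against 20.4, 21.9 and 1.80 CPM (edgeR adjusted p = 0.0765 for both). Cyp4f18 was higher in young and lower in aged CCR2+ CRMs, at 736, 529 and 448 CPM against 286, 278 and 201 CPM, a log2 difference of -5.64 (edgeR adjusted p = 0.0633).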

How the results depend on the processing

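Counts of genes higher and lower in young CCR2+ CRMs, 15 and 70 here, were 1526 and 1640 with DESeq2, 865 and 1823 with DESeq2 on the 6 young libraries, 41 and 235 with limma-voom, 235 and 248 with quality weights, 10 and 0 with RLE factors, 22 and 172 by library size only, 161 and 22 with no filter, 112 and 315 with at least 10 counts in every library, 47 and 57 with all 18 libraries and 1661 and 2222 at an unadjusted p under 0.05. They were 0 and 0 on the 6 young libraries, where edgeR had only their own spread. With a replicate block by library number they were also 0 and 0, and whether the numbers pair the samples is not known. Leaving out 1 young library gave 0 to 44 higher and 0 to 59 lower, with 0 for each of the CCR2- libraries 1, 2 and 3. With CCR2- library 3 of both ages left out they were 0 and 0 in edgeR and 650 and 866 in DESeq2. All 85 called genes kept their direction in every setting that tested them. They had large fold changes and no overlap in these same libraries, so this largely follows from their choice. Genes whose subset difference differed between aged and young mice, 0 here, were 1857 with DESeq2, 15 with limma-voom, 44 by library size only, 356 with no filter, 46 with at least 10 counts, and 0 to 8 without 1 library. Between high-fat diet and young mice, 3 here, they were 1799, 0, 25, 477 and 54 in the same order, 0 with RLE factors, 0 with the replicate block, 0 to 22 without 1 library and 0 without CCR2- library 3. The causes were not tested.

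Of 1632 recomputed log2 fold changes of 83 named genes, 1238 kept direction and side of the threshold, 182 lost and 184 gained the adjusted p under 0.05, and 28 turned, all in Cx3cr1 and the mitochondrial genes. Cx3cr1 turned to 0.30 with DESeq2 and RLE factors, 0.0526 with no filter, 0.14 with DESeq2 on 6 libraries and ran from -2.68 to 0.86 without 1 library. With DESeq2 and with RLE factors, mt-Nd6 turned to 0.0603, mt-Nd4 to 0.53, mt-Nd4l to 0.24 and mt-Atp8 to 0.70. With DESeq2 on 6 libraries mt-Nd4, mt-Nd4l and mt-Atp8 were 0.29, 0.0045 and 0.46. With no filter mt-Nd4 and mt-Atp8 were 0.14 and 0.29, and with DESeq2 without CCR2- library 3 0.19 and 0.36. mt-Atp8 was 0.12 with all 18 libraries. Without 1 library mt-Nd4 ran from -0.65 to 0.11 and mt-Atp8 from -0.68 to 0.20. The lowest mean level of a called gene in a subset, 0.594 CPM, lay above the 0.0531 to 0.0711 CPM of 3 counts. That limit covers counting error only. The part of depth, of the number of libraries and of their spread in the precision was not tested.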
